A study of Arabidopsis thaliana with 6 samples.

Results

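The transcriptome of *Arabidopsis thaliana* rosette leaves during the third dehydration stress (S3) was compared with that during the first one (S1). The comparison uses the 2 S3 and the 2 S1 libraries out of the 6 of the series, and every gene that averaged 1 FPKM or more in S3 or in S1. This left 17567 of the 33555 genes listed. FPKM, the number of fragments scaled by transcript length and by library size, is the unit of all levels given here.

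The S3 plants had gone through 2 cycles of 2 h of drying in air and 22 h of rehydration, and were harvested in the third drying. The S1 plants were harvested in the first drying, of the same 2 h. The remaining 2 libraries are from watered plants (W) that were taken before any drying. All plants were untransformed, were grown in soil at 22 °C with 12 h of light, and were kept overnight in humid chambers once removed from the soil. The ecotype is labelled Col-0 and the genotype WS in all samples, and this conflict could not be resolved. The number of stresses, the time since removal from the soil and the age of the plants differ together between S3 and S1 and cannot be told apart. The hour of harvest is not given in the sources used here, and whether it differed between S3 and S1 is not known. The S3 values and the S1 values used here come from separate runs of the authors' quantification, so that a common scale is assumed, and 2 other scalings were tried.

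Leaves that dry out make abscisic acid, a hormone that closes stomata and switches on genes for protective proteins through bZIP factors binding the sequence ACGTG. Among these proteins are the dehydrins and other late embryogenesis abundant (LEA) proteins, which accumulate in drying seeds and leaves and shield membranes and enzymes. Drying and wounding also set off the synthesis of jasmonate, a lipid-derived hormone whose JAZ repressors are destroyed when it is made, so that MYC2 can activate genes of defence and storage. Plants that have dried once can respond to a later drying with other transcript levels, which is termed transcriptional memory. The paper keeps this term for genes that changed in S1 against W and then differed between S3 and S1. Only the comparison of S3 with S1 was made here, so that a gene called below need not be a memory gene by that definition.

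Called higher in S3 were 10 of 22 dehydrin, LEA, RD and COR genes, some lipid transfer proteins and clock genes such as CCA1. Most genes of the jasmonate pathway, 10 of 17 aquaporins and 4 Rubisco small subunits were called lower in S3. With limma's moderated test, an adjusted p of at most 0.05 and a change of 1 or more on the log2 scale, 1433 genes (8.16% of those tested) were called higher in S3 and 1712 genes (9.75%) were called lower, 17.9% in either direction. The counts of called members in each gene list below are to be read against these 8.16% and 9.75%. The median log2 fold change over all genes tested was 0.018. None of the called genes overlapped between the S3 and the S1 libraries, whereas over all genes tested both S3 libraries lay above both S1 libraries in 39.6% and below them in 37.5%. Of the called genes, 325 (1.85% of all tested) reached a log2 fold change of 2 and 488 (2.78%) reached -2. Fold changes are on the scale of log2(FPKM + 1) throughout and so understate the change of genes with low levels. Changes of setting moved these totals by more than 1.5 times in 2 cases: a pseudocount of 5 FPKM in place of 1 gave 801 higher and 1027 lower, and the adjusted p alone gave 4029 higher and 4034 lower.

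**Figure D1:**
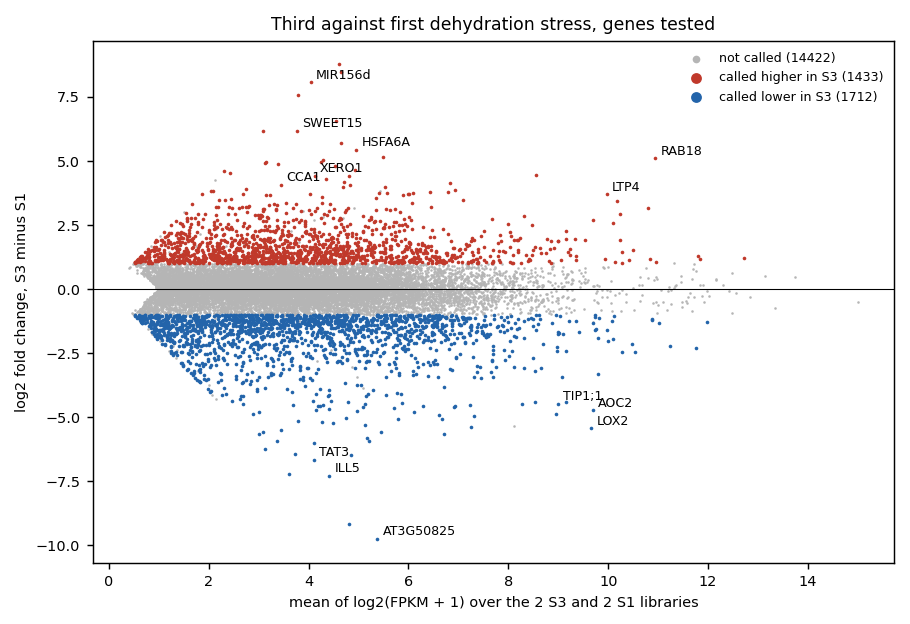
Each point is one of the 17567 genes tested, with the mean of log2(FPKM + 1) over the 2 S3 and 2 S1 libraries on the x axis and the log2 fold change of S3 over S1 on the y axis. The 1433 genes called higher are in red, the 1712 called lower in blue and the rest in grey, and RAB18 stands apart at the right as the called gene with the highest level among those with a fold change above 5.

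The median difference between replicates, on the log2 scale, was 0.16 in S3 and 0.149 in S1, and the log2 fold changes between the conditions had an SD of 0.95. The sums of FPKM were 939097 and 895951 in the S3 libraries, against 974046 and 971141 in the S1 libraries, and 22260 and 22457 genes were above 0 in S3, against 22180 and 22283 in S1. The lowest values fall on steps that single reads would give, from which 1 FPKM on a transcript of 1000 bases stands for about 36 and 39 reads in the S3 libraries and 33 and 36 in the S1 libraries. The 5 markers of leaf mesophyll were abundant in all libraries, with sums of 7323 and 8672 FPKM in S3, against 16837 and 11830 in S1, and 2 of them were called lower (median log2 fold change -1.28). All 4 markers of flowers and pollen were below the limit of 1 FPKM. Of the 7 root markers, only 2 reached that limit. One of them, the root and seedling beta-glucosidase PYK10, was at 25.96 and 22.32 FPKM in S3, against 0.9529 and 3.154 in S1, and was called higher. The markers of xylem vessels XCP1 and XCP2, 2 cysteine proteases, were also called higher, XCP1 at 35.91 and 38.98 FPKM in S3, against 17.35 and 12.21 in S1. Summed, the 7 root markers were at 32.64 and 28.52 FPKM in S3, against 5.369 and 7.446 in S1. PYK10 made up most of this sum in S3. The 3 xylem markers summed to 85.63 and 98.97 FPKM in S3, against 41.61 and 34.37 in S1. Of the 5 seed markers only SESA1, a storage albumin, reached the limit, listed at 0 in both S3 libraries, against 1.046 and 1.847 FPKM in S1, and it was called lower, a call lost with pseudocount 5. XCP1 and PYK10 overlap genes on the opposite strand. The part of root or xylem RNA in the other results was not tested.

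Of 22 genes for dehydrins, LEA, RD and COR proteins, all of which were tested, 10 were called higher and 3 lower in S3. Their median log2 fold change was 0.58, beside 0.018 over all genes. RAB18, a dehydrin induced by abscisic acid, was at 10796 and 12194 FPKM in S3, against 332.2 and 337 FPKM in S1. Both S3 libraries lay far above both S1 libraries, and the mean was 34.4 times higher (log2 fold change 5.10, SE 0.16, adjusted p = 5.9e-05, limma). This single gene took 1.15% and 1.36% of all FPKM in the S3 libraries, against 0.0341% and 0.0347% in the S1 libraries. XERO1, another dehydrin, was at 72.82 and 87.12 FPKM in S3, against 2.115 and 3.527 in S1 (log2 fold change 4.42, adjusted p = 9.8e-05). LTI30, a dehydrin also induced by cold, was at 417.2 and 381.9 FPKM in S3, against 93.78 and 73.33 in S1 (log2 fold change 2.25). In none of these 3 dehydrins did the groups overlap.

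Other LEA genes were called higher as well. LEA7 was at 2850 and 3811 FPKM in S3, against 376.5 and 501.9 in S1, with a log2 fold change of 2.92. EM1 and EM6, which are best known from the dry seed, were at 12.45 and 12.63 and at 10.97 and 9.774 FPKM in S3, against 0.4408 and 0.481 and 1.061 and 0.8269 in S1. RD29B, a hydrophilic protein widely used as a marker of abscisic acid responses, was at 2540 and 2784 FPKM in S3, against 315.8 and 634.8 in S1. The S1 replicates of RD29B lay further apart than its S3 replicates, but both were below the S3 libraries, and its log2 fold change was 2.57 (SE 0.33, adjusted p = 0.0021, limma). LEA4-5, AT3G17520 and LEA18 were also called higher, by 2.54, 3.78 and 1.77 on the log2 scale. Outside the list, AT5G66780, annotated as an LEA protein, was among the 12 protein-coding genes with the largest rise, at 40.2 and 54.5 FPKM in S3, against 0.5816 and 0.595 in S1.

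Other members of the list were called lower or were not called. COR15B, which protects chloroplast membranes in the cold, was at 577.7 and 538.4 FPKM in S3, against 2301 and 1980 in S1, and fell by 1.93 on the log2 scale. KIN1, a small hydrophilic protein, was called lower as well, with a log2 fold change of -1.54, and so was RD20, a caleosin of lipid bodies, at 2492 and 2688 FPKM in S3, against 6164 and 6314 in S1, though its call was lost with no filter on low values. The dehydrins COR47, ERD10 and ERD14, as well as KIN2 and LEA14, were abundant in both conditions and were not called. Their log2 fold changes lay between -0.31 and 0.06. COR15A, at 4158 and 4108 FPKM in S3, against 8625 and 7259 in S1, had an adjusted p of 0.012 (limma) but a log2 fold change of -0.94, just under the limit. KIN1 and KIN2 are neighbouring copies, as are COR15A and COR15B, and their reads could have been shared. As a sum, the 22 genes took 5.65% and 6.16% of all FPKM in S3, against 4.97% and 5.08% in S1. LEA7, RAB18 and COR15B are overlapped on the opposite strand by AT1G52695, AT5G66410 and AT2G42520. Reads in the shared stretches cannot be told apart, because the library kit does not mark strand. The length of these stretches was not determined.

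**Figure D2:**
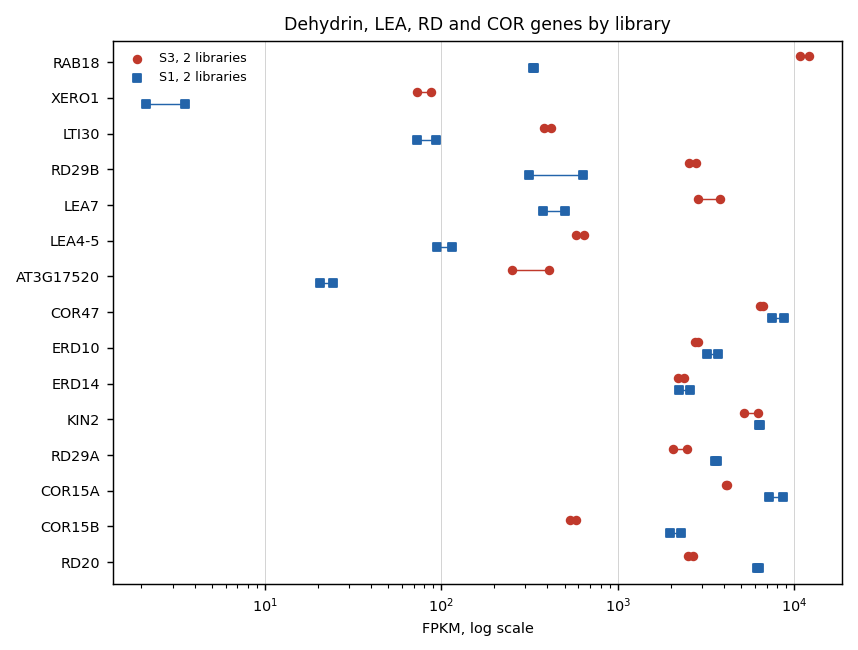
FPKM on a log axis for 15 genes of the dehydrin, LEA, RD and COR list, with S3 libraries as red circles above S1 libraries as blue squares and a line joining the 2 replicates. RAB18 to AT3G17520 have both circles to the right of both squares, COR47 to KIN2 lie close together, and COR15B and RD20 have both circles to the left.

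The 250 bases before the gene start were searched for ACGTG, the core that bZIP factors of the abscisic acid pathway bind, on both strands. The letters CACGTG read the same on both strands and count as 2 matches. At least 1 match was present in 24% of 16970 protein-coding genes tested, in 31% of those called higher and in 29.9% of those called lower. In the dehydrin, LEA, RD and COR list 17 of 22 genes held it, including 9 of the 10 called higher and 2 of the 3 called lower. CCGAC, the core bound by the CBF and DREB factors of cold and drought, was in 13.5% of all genes, 9 of the 22 in the list, 6 of the 10 called higher and 0 of the 3 called lower. A match is a description of letters and not a binding site that was measured. The upstream sequences of 4 members called higher are shown because they hold between 2 and 5 matches close to the start, beside that of VSP1, a gene of the jasmonate outputs described further on that was called lower and holds 2 matches. They were chosen after the values were seen, run 5′ to 3′ on the strand of the gene, end at the base before the gene start of the RefSeq annotation of TAIR10.1, and have the ACGTG matches of either strand in capitals. XERO1 lies on the + strand of chromosome 3 (chr3:18941675-18941924), LEA7 on the + strand of chromosome 1 (chr1:19619474-19619723), RD29B on the + strand of chromosome 5 (chr5:21236771-21237020), LEA4-5 on the - strand of chromosome 5 (chr5:2090431-2090680) and VSP1 on the - strand of chromosome 5 (chr5:8509202-8509451).
XERO1: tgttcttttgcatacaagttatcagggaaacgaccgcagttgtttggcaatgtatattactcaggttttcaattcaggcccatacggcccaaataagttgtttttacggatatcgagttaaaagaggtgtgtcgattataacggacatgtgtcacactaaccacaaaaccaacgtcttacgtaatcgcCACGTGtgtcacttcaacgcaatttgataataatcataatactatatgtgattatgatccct
LEA7: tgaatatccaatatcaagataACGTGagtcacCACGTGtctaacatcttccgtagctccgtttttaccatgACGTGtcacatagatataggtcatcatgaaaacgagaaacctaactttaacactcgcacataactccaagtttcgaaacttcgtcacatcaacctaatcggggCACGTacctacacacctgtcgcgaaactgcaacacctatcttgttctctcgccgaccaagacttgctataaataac
RD29B: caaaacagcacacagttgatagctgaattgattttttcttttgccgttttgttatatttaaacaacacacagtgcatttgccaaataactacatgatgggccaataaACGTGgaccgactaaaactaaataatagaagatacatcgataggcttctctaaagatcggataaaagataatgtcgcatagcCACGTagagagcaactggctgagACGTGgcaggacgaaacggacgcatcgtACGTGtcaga
LEA4-5: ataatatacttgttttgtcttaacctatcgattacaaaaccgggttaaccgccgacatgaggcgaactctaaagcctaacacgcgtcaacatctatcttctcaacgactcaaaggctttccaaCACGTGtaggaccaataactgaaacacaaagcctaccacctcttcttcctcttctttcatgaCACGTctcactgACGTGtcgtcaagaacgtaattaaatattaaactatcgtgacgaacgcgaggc
VSP1: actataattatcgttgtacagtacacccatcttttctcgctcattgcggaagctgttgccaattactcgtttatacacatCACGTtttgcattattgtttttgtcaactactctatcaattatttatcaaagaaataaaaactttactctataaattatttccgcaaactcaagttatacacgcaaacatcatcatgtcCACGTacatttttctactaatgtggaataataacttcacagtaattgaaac

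Lipid transfer proteins, small secreted proteins that carry lipids in the cell wall and cuticle, made up another abundant group. Of 17 tested genes for lipid transfer proteins and cuticular wax, 6 were called higher and 1 lower, with a median log2 fold change of 0.40. LTP3 was at 5622 and 4985 FPKM in S3, against 479.7 and 734 in S1, and its neighbour LTP4 was at 3740 and 3482 FPKM in S3, against 236.5 and 322.8 in S1. Both were called higher without overlap of the groups, by 3.16 and 3.70 on the log2 scale, but they are close copies whose reads could have been split between them. The list took 1.7% and 1.69% of all FPKM in S3, against 0.672% and 0.658% in S1. CER1, CER3 and CER6, core enzymes of wax synthesis, were not called, with log2 fold changes of 0.19, -0.51 and -0.08. The wax repressor DEWAX and the wax ester synthase WSD1 were called higher, by 1.66 and 1.13, though WSD1 lost its call without S3 replicate 2. The gene with the largest rise of all protein-coding genes, AT3G53980, is annotated to the same protein superfamily. It was at 204 and 253.8 FPKM in S3, against 1.707 and 1.159 in S1 (log2 fold change 6.56, 95% interval 6.14 to 6.99, adjusted p = 5.3e-05, limma). AT4G33550, of the same superfamily, was at 158.2 and 205 FPKM in S3, against 1.939 and 3.106 in S1.

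The other protein-coding genes with the largest rises have diverse roles. SWEET15, a sucrose exporter of the plasma membrane that is also known as a senescence-associated gene, was at 88.51 and 146.6 FPKM in S3, against 0.2225 and 1.062 in S1 (log2 fold change 6.18, SE 0.32, adjusted p = 0.00013, limma). HSFA6A, a heat shock transcription factor, was at 191.3 and 213.8 FPKM in S3, against 1.806 and 6.784 in S1 (log2 fold change 5.44, SE 0.45). In both genes the S1 replicates differed several-fold at these low levels, yet the S3 libraries lay far above them. HIPP22, a protein with a metal-binding domain, was at 280.3 and 250.4 FPKM in S3, against 3.742 and 11.04 in S1. The glutathione transferase GSTU9, the nitrilase NIT2, the expansin-like protein EXLB1 and PYD4, annotated as PYRIMIDINE 4, completed the group with log2 fold changes between 4.90 and 5.04. A gene with a transcript of only 96 bases, AT2G34186, also met the rule for the largest rises and is described with the short transcripts.

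Of 12 tested genes for the synthesis and breakdown of abscisic acid, 4 were called higher and 2 lower, with a median log2 fold change of 0.66. NCED3, the enzyme of the rate-limiting step of stress-induced synthesis, was at 245.7 and 308.4 FPKM in S3, against 170 and 208.7 in S1, and was not called (log2 fold change 0.54, adjusted p = 0.049). Of the 4 hydroxylases that break the hormone down, 3 were called higher: CYP707A2 at 14.03 and 14.45 FPKM in S3, against 1.444 and 2.078 in S1, CYP707A4 by 1.76 and CYP707A3 by 1.11 on the log2 scale. The call of CYP707A3 was lost without S3 replicate 2 and without S1 replicate 1. BG1, a glucosidase that frees the hormone from its conjugate, was at 79.65 and 189.3 FPKM in S3, against 2501 and 2798 in S1, and fell by 4.42 on the log2 scale.

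Of 25 tested genes of abscisic acid signalling, 5 were called higher and 4 lower, with a median log2 fold change of 0.32. The bZIP factor ABF4 was at 100.5 and 98.69 FPKM in S3, against 23 and 27.71 in S1 (log2 fold change 1.94), and ABF2 was at 256 and 277.1 FPKM in S3, against 94.59 and 129.5 in S1 (log2 fold change 1.26). SNRK2.6, the kinase that acts in guard cells, was at 30.71 and 26.88 FPKM in S3, against 8.81 and 9.877 in S1, and SNRK2.3 was at 53.99 and 48.95 FPKM in S3, against 20.51 and 20.17 in S1. Of the 6 receptors tested, PYL5, PYL7 and PYL8 were called lower, with log2 fold changes of -1.50, -1.36 and -1.08, and PYR1, PYL1 and PYL9 had -0.29, -0.63 and -0.62 without a call. The call of PYL8 was lost without S3 replicate 2 and without S1 replicate 1. The phosphatases ABI1, ABI2, HAB1, HAB2, HAI1, HAI2 and AHG3, which hold the pathway off, were not called and had log2 fold changes between -0.37 and 0.48, while HAI3, of the same class, was called higher at 2.073 and 2.913 FPKM in S3, against 0.1414 and 0.5915 in S1, a call that was lost with pseudocount 5. ABF4, SNRK2.3 and PYL7 overlap genes on the opposite strand.

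The jasmonate pathway was lower in S3 at nearly every step. Of 16 genes of its synthesis 13 were called lower and 0 higher (median log2 fold change -4.15). All 10 tested genes of its turnover were called lower (median -4.13). Of 24 tested JAZ repressors, MYC factors and jasmonate outputs 20 were called lower and 0 higher (median -2.72). Single calls depended on the setting: JAZ8 was not called with pseudocount 5, ACX1 not without S3 replicate 1, and the thionin THI2.1 not under 6 settings, among them those without S3 replicate 1 and without S1 replicate 1.

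LOX2, the lipoxygenase that opens jasmonate synthesis in the chloroplast, was at 92.87 and 160.1 FPKM in S3, against 4763 and 5927 in S1 (log2 fold change -5.43, SE 0.28, adjusted p = 0.00013, limma). AOS, the allene oxide synthase of the next step, was at 70.89 and 89.13 FPKM in S3, against 1573 and 1808 in S1 (log2 fold change -4.39). AOC2, an allene oxide cyclase, was at 165.5 and 154.2 FPKM in S3, against 4341 and 4180 in S1 (log2 fold change -4.73). The S3 libraries lay more than an order of magnitude below the S1 libraries in these 3 enzymes. AOC1, AOC2 and AOC3 are neighbouring copies whose reads could have been shared, while AOC4, on another chromosome, was not called (log2 fold change -0.50). OPR3, the reductase in the peroxisome, was at 23.76 and 25.18 FPKM in S3, against 571 and 619.8 in S1. JAR1, which couples jasmonate to isoleucine and so makes the active hormone, was at 26.05 and 27.77 FPKM in S3, against 464.5 and 339.2 in S1. The 2 other genes without a call were LOX6, with a log2 fold change of -0.93, and PED1, a thiolase of general fatty acid breakdown, with 0.83.

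In sum, the synthesis genes took 0.137% and 0.156% of all FPKM in S3, against 1.64% and 1.77% in S1. In the W libraries the same sum was 0.115% and 0.136%, in reads of another length. Of the genes that inactivate the hormone or release it from amino acids, ILL5 had the largest fall of all protein-coding genes. This hydrolase was at 0.3959 and 1.099 FPKM in S3, against 271.5 and 257 in S1 (log2 fold change -7.28, 95% interval -7.78 to -6.77). JOX4, an oxidase that turns jasmonate into an inactive form, was at 0.9278 and 3.819 FPKM in S3, against 312.6 and 235.3 in S1. CYP94B3, a hydroxylase of the active conjugate, was at 0.3153 and 0.7381 FPKM in S3, against 51.83 and 33.14 in S1. JMT, which makes the volatile methyl ester, was at 0.2994 and 0.351 FPKM in S3, against 70.77 and 90.61 in S1.

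Among the repressors, JAZ10 was at 3.69 and 8.914 FPKM in S3, against 161.6 and 170.9 in S1 (log2 fold change -4.62), and JAZ1 was at 79.16 and 108.4 FPKM in S3, against 638.1 and 625.1 in S1 (log2 fold change -2.76). JAZ11 and JAZ12 were not called, with log2 fold changes of 0.35 and -0.55. MYC2, the main activator, was at 21.28 and 23.74 FPKM in S3, against 100.6 and 124.7 in S1, whereas its relatives MYC3 and MYC4 had log2 fold changes of -0.35 and 0.52 without a call. JAZ10, MYC2 and THI2.1 overlap genes on the opposite strand. The outputs VSP1 and VSP2, storage proteins with phosphatase activity, were at 4.456 and 6.451 and at 8.221 and 10.99 FPKM in S3, against 284.2 and 319.2 and 282.5 and 242.3 FPKM in S1. TAT3, a tyrosine aminotransferase, fell by 6.66 on the log2 scale. CORI3, another jasmonate-induced gene, was at 633 and 641.4 FPKM in S3, against 3308 and 3602 in S1, and so remained abundant. ACGTG stood upstream of 16 of the 24 tested genes for JAZ repressors, MYC factors and outputs and 15 of the 20 called lower, 7 of the 16 synthesis genes and 2 of the 10 turnover genes, against 24% of all protein-coding genes.

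**Figure D3:**
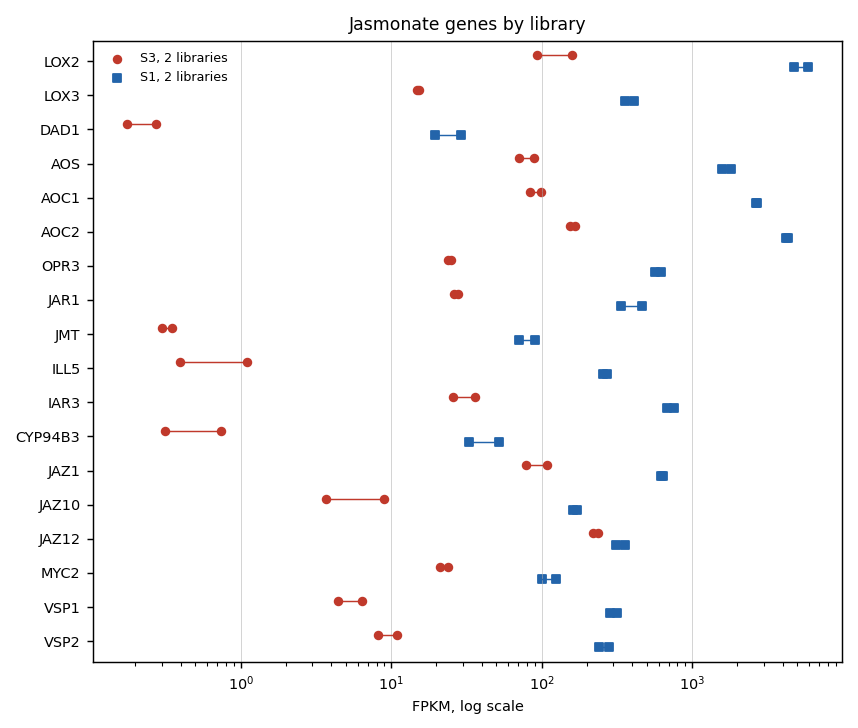
FPKM on a log axis for 18 genes of jasmonate synthesis (LOX2 to JMT), turnover (ILL5 to CYP94B3), and repressors, factors and outputs (JAZ1 to VSP2), with S3 libraries as red circles above S1 libraries as blue squares and a line joining the 2 replicates. Both circles lie to the left of both squares in every gene plotted, farthest for ILL5 and JMT and least for JAZ12, which was not called.

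The other protein-coding genes with the largest falls have diverse roles. BAM5, a cytosolic beta-amylase, was at 0.2787 and 0.5817 FPKM in S3, against 141.7 and 105.8 in S1 (log2 fold change -6.44). EXPA10, an expansin that loosens the cell wall, was at 10.22 and 18.25 FPKM in S3, against 981.6 and 561.6 in S1 (log2 fold change -5.66). PGL5, annotated as a 6-phosphogluconolactonase, was at 3.06 and 4.677 FPKM in S3, against 231.8 and 318.9 in S1. In all 3 genes the S3 libraries were far below both S1 libraries. UGT76E12 and AT2G30830 overlap genes on the opposite strand. UGT76E12, a glucosyltransferase, the cysteine protease AT4G11320, the oxygenase AT2G30830 and AT1G07050, with a CCT motif, had log2 fold changes of -5.99, -5.95, -5.57 and -5.50. The chlorophyllase CLH1 was at 4.881 and 14.31 FPKM in S3, against 288.3 and 355.1 in S1.

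Of 26 clock genes, all tested, 13 were called higher and 7 lower, with a median log2 fold change of 0.78. The hours of the S3 and S1 harvests are not given in the sources used here. Whether both harvests fell at the same hour of the day is not known. The clock genes' part in the other results was not tested. Among those called higher were genes known to peak in the morning. CCA1, a MYB factor that peaks at dawn and represses the evening genes, was at 37.04 and 52.16 FPKM in S3, against 1.489 and 1.862 in S1 (log2 fold change 4.07, SE 0.19, adjusted p = 9.8e-05, limma). PRR9, a repressor that follows CCA1 in the morning, was at 25.26 and 36.09 FPKM in S3, against 1.951 and 2.324 in S1 (log2 fold change 3.32). RVE8, a MYB activator of the same family as CCA1, was at 7.36 and 10.06 FPKM in S3, against 0.2041 and 0.2784 in S1 (log2 fold change 2.95). Neither group overlapped the other in these genes. The activator RVE4 was at 95.86 and 108.7 FPKM in S3, against 17.16 and 20.05 in S1, and the coactivators LNK1, LNK2, LNK3 and LNK4 rose by 1.74, 2.26, 2.63 and 1.35 on the log2 scale. LHY, the partner of CCA1, was at 2.804 and 5.221 FPKM in S3, against 0.3351 and 0.3838 in S1, and was not called with pseudocount 5.

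Among those called lower were genes known to peak towards the evening. LUX, a MYB-type factor of the evening complex, was at 17.49 and 14.16 FPKM in S3, against 88.92 and 94 in S1 (log2 fold change -2.46), and its relative BOA was at 1.397 and 1.58 FPKM in S3, against 13.03 and 15.62 in S1 (log2 fold change -2.62). ELF4, of the same complex, was at 50.04 and 28.93 FPKM in S3, against 179.7 and 201.5 in S1. The remaining subunit ELF3, the pseudo-response regulator TOC1 and the blue light receptor FKF1 were called lower by log2 fold changes of -1.38, -1.17 and -1.28. The remaining clock genes called were PRR7, RVE1, RVE7 and CHE, by 1.17, 2.01, 2.42 and 1.08, and PRR3, by -1.07. The call of CHE was lost without S3 replicate 1 and without S1 replicate 2, and that of PRR3 without S3 replicate 2, without S1 replicate 2 and when the libraries were scaled to the same sum. PRR5 and GI, which peak in the afternoon, were not called, with log2 fold changes of -0.13 and 0.12, and neither were RVE2, RVE6, ZTL and CDF1. In the watered plants, for which reads were of another length, CCA1 was at 3.801 and 5.026 FPKM and LUX at 19.46 and 17.05 FPKM. LUX, BOA, ELF3, FKF1, LNK1, LNK2 and LNK3 overlap genes on the opposite strand.

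**Figure D4:**
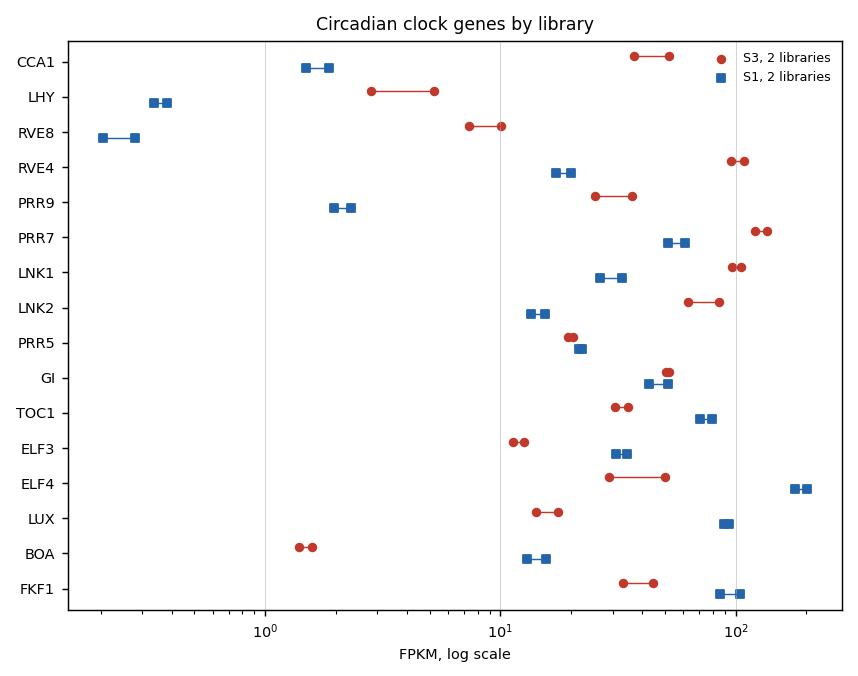
FPKM on a log axis for 16 of the 26 clock genes, from CCA1 at the top to FKF1 at the bottom, with S3 libraries as red circles above S1 libraries as blue squares and a line joining the 2 replicates. CCA1 to LNK2 have both circles to the right of both squares, PRR5 and GI lie close together, and TOC1 to FKF1 have both circles to the left.

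ACGTG stood upstream of 17 of the 26 clock genes, against 24% of all protein-coding genes. Among them were 9 of the 13 called higher and 6 of the 7 called lower. The evening element AAAATATCT, which CCA1 and the RVE factors bind, was searched on both strands of the same 250 bases. It was present in 2.65% of all 16970 protein-coding genes, in 3.68% of those called higher and in 3.73% of those called lower. Of the 26 clock genes 6 held it, 4 of the 7 called lower and 1 of the 13 called higher. The 4 called lower are shown for that reason, with the element in capitals as it reads on the strand of the gene (AAAATATCT or AGATATTTT), in the same orientation and from the same annotation as the sequences of the dehydrin genes. The regions lie on the + strand at chr3:17182792-17183041 for LUX, chr5:24003638-24003887 for BOA, chr5:24674713-24674962 for TOC1 and chr1:25508389-25508638 for FKF1. The element begins 53 bases before the gene start in LUX, 43 in BOA, 151 in TOC1 and 186 in FKF1.
LUX: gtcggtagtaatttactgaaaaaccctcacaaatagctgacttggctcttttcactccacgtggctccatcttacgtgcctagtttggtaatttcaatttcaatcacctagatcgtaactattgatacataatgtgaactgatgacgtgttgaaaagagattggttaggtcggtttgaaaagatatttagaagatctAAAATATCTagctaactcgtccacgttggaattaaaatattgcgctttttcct
BOA: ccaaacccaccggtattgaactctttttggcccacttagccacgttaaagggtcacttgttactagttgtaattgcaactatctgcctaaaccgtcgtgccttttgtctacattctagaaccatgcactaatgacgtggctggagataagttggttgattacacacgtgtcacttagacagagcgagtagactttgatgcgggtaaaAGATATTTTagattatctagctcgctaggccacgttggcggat
TOC1: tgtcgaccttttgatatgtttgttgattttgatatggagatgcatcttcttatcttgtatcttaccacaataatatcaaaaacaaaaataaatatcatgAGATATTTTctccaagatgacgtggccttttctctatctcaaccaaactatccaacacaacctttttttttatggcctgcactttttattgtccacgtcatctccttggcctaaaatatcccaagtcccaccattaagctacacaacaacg
FKF1: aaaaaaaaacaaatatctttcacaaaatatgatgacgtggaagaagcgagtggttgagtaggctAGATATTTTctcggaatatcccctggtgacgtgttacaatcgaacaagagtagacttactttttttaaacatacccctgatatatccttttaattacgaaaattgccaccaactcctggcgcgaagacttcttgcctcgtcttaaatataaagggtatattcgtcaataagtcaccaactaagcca

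Aquaporins are the water channels of membranes. Of 17 tested genes 10 were called lower and 0 higher, with a median log2 fold change of -1.26. TIP1;1, of the vacuole membrane, was at 113.3 and 100.9 FPKM in S3, against 2525 and 2265 in S1 (log2 fold change -4.47, adjusted p = 6e-05, limma). PIP2;3, of the plasma membrane, was at 16.76 and 32.55 FPKM in S3, against 639.5 and 542.3 in S1 (log2 fold change -4.59), though it is a close copy of PIP2;2, which fell by 2.55. PIP2;1 was at 1012 and 1219 FPKM in S3, against 5421 and 4952 in S1. The S3 and S1 libraries did not overlap in these genes, and the list as a whole took 0.559% and 0.658% of all FPKM in S3, against 2.11% and 1.98% in S1. PIP1;2, PIP1;3 and PIP2;6 had log2 fold changes of -0.82, -0.95 and -0.86 and were not called, and PIP1;5, PIP2;4 and PIP2;5 had 0.76, 0.61 and 0.10. The guard cell potassium channels KAT1 and KAT2, which let potassium in as stomata open, were called lower by log2 fold changes of -1.12 and -1.82. Both calls were lost with pseudocount 5. Of 8 tested guard cell markers, 2 were called lower and 0 higher, with a median log2 fold change of -0.19.

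Of 37 light harvesting and photosystem subunits 7 were called lower and 2 higher, with a median log2 fold change of -0.51, and of 18 Calvin cycle genes 8 were called lower and 0 higher, with a median of -0.75. RBCS3B, a small subunit of Rubisco, was at 227.4 and 349.4 FPKM in S3, against 3476 and 2285 in S1 (log2 fold change -3.32, SE 0.29, adjusted p = 0.00059, limma). RBCS1A was at 1392 and 1732 FPKM in S3, against 9517 and 6085 in S1, and RBCS2B and RBCS1B fell by 2.41 and 2.29 on the log2 scale. The 4 genes are close copies, so the split of reads among them is uncertain, but all S3 values were below all S1 values of the same gene. Rubisco activase, RCA, was not called (log2 fold change 0.49), and neither was phosphoribulokinase, PRK (0.28). CA1, a carbonic anhydrase of the chloroplast, was at 105.5 and 181.2 FPKM in S3, against 1334 and 1022 in S1.

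In the antenna of photosystem II, LHCB2.1 and LHCB2.2 were called higher, by 1.90 and 1.02 on the log2 scale, and LHCB1.2, LHCB2.3, LHCB4.3 and LHCB6 lower. LHCB2.1 and LHCB2.2 are close copies, as is LHCB1.2 of other LHCB1 genes, and reads could have been split among them. LHCB2.3, LHCB6 and CAO overlap genes on the opposite strand. PSBS, the sensor of excess light, was at 242.1 and 320 FPKM in S3, against 1028 and 845.7 in S1. The number called lower depended on single libraries: it was 3 without S3 replicate 1, 3 without S1 replicate 1 and 11 without S1 replicate 2, and LHCB2.2 lost its call without S3 replicate 2 and without S1 replicate 2. Of 16 genes of chlorophyll synthesis and GLK factors 3 were called higher and 5 lower, with a median log2 fold change of -0.72, and the number called lower was 3 without S3 replicate 1. GLK1 and GLK2, which activate antenna and chlorophyll genes, were called higher, at 80.14 and 67.69 and at 88.5 and 96.45 FPKM in S3, against 28.37 and 26.72 and 19.99 and 26.33 FPKM in S1. The divinyl reductase DVR was at 2.756 and 5.287 FPKM in S3, against 65.04 and 48.34 in S1, while CAO, which makes chlorophyll b, rose by 1.63. The magnesium chelatase subunits CHLI1 and CHLI2 were called lower by log2 fold changes of -1.53 and -1.68, as were PORA and PORB, which reduce protochlorophyllide, by -1.06 and -1.04. The call of PORA was lost without S3 replicate 1 and without S1 replicate 2, and that of PORB without S3 replicate 1, without S3 replicate 2 and without S1 replicate 1. Of 10 plastid ribosomal proteins 7 were called lower and 0 higher, with a median log2 fold change of -1.09, for example PRPS20, which overlaps other genes, at 98.25 and 102.4 FPKM in S3, against 419.9 and 317 in S1. A list of ribosomal proteins taken by product names of the cytosolic kind held 104 tested genes, of which 7 were called lower (6.73%, beside 9.75% of all genes) and 0 higher. The median was -0.39, with 91 of the 104 negative. The list is not free of organelle proteins: AT3G13120, which had its largest fall (-1.90), is a plastid protein, and HLL is a mitochondrial one. The count of 7 was 2 when the libraries were scaled to the same sum, 43 with the adjusted p alone, 14 without S3 replicate 1, 2 without S3 replicate 2, 2 without S1 replicate 1 and 15 without S1 replicate 2.

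Of 42 tested genes of core and linker histones, 17 were called lower and 3 higher (median log2 fold change -0.74), and with pseudocount 5 the number called lower was 10. The genes AT5G65360 and AT5G10400, each encoding histone H3, were at 2.141 and 2.626 and at 2.237 and 1.846 FPKM in S3, against 39.09 and 28.88 and 31.73 and 25.94 FPKM in S1. Histone genes are close copies, and reads could have been split among them. HIS1-3, a linker histone induced by drought and abscisic acid, was at 239.3 and 228.2 FPKM in S3, against 18.37 and 15.17 in S1, which was opposite to most of the list (log2 fold change 3.73, adjusted p = 6.5e-05, limma).

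**Figure D5:**
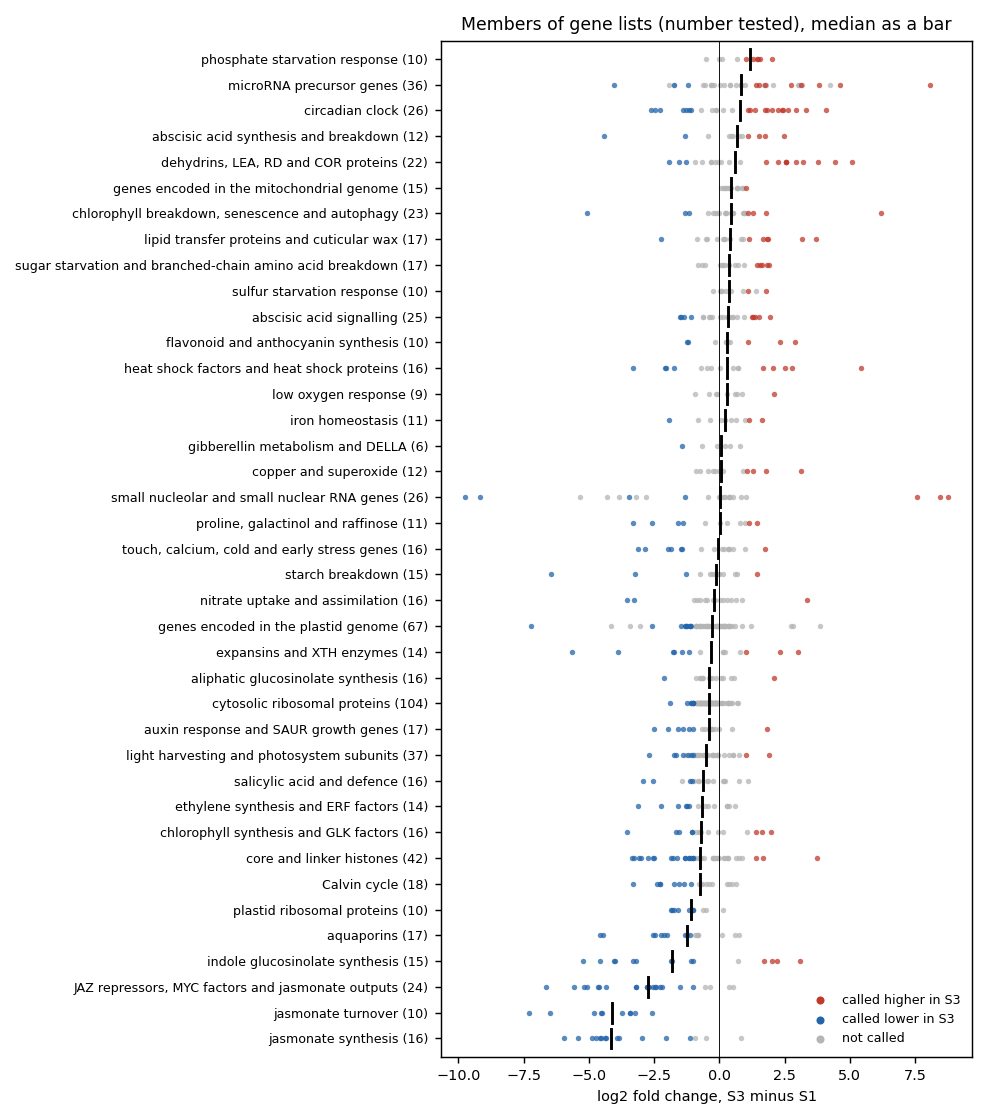
Log2 fold change of S3 over S1 for each tested member of the gene lists, with the number tested after each name, members called higher in red, called lower in blue and not called in grey, and the median of each list as a black bar. The 3 jasmonate lists lie farthest to the left, and the phosphate, clock, dehydrin and abscisic acid lists have medians above 0.

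Of 10 tested phosphate starvation genes 6 were called higher and 0 lower, with a median log2 fold change of 1.16, and with pseudocount 5 the number called higher was 3. SPX1, a phosphate sensor, was at 21.88 and 19.12 FPKM in S3, against 4.371 and 4.385 in S1, and PAP17, a secreted phosphatase, was at 257.3 and 220.9 FPKM in S3, against 68.36 and 94.61 in S1. PHO2, which limits phosphate uptake, is also in the list and rose by 1.46 on the log2 scale. Whether the plants lacked phosphate was not tested. The genes of sulfolipid synthesis SQD1 and SQD2 had log2 fold changes of 0.11 and -0.02. PAP17 and APR2 overlap genes on the opposite strand. Of 10 tested sulfur genes 2 were called higher, and this count was 1 without S3 replicate 1, 1 without S1 replicate 1 and 5 without S3 replicate 2. S3 replicate 1 was above S3 replicate 2 in most of them. APR2, a reductase of sulfate assimilation, was at 30.56 and 17.47 FPKM in S3, against 4.514 and 7.84 in S1.

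Of 17 tested genes of sugar starvation and branched-chain amino acid breakdown, 5 were called higher and 0 lower (median log2 fold change 0.36). DIN1, a marker of darkness and sugar lack, was at 980.6 and 737 FPKM in S3, against 225.9 and 337.1 in S1, and BCAT2, an aminotransferase of the mitochondrion, was at 80.23 and 88.46 FPKM in S3, against 17.54 and 30.57 in S1. Of 16 tested genes of nitrate uptake and assimilation 1 was called higher and 2 lower (6.25% and 12.5%, beside 8.16% and 9.75% of all genes). The number called higher changed when S3 replicate 2 was left out. ASN1, an asparagine synthetase, was at 218.1 and 213.9 FPKM in S3, against 17.05 and 23.58 in S1 (log2 fold change 3.37). NIA1, a nitrate reductase, was at 1.492 and 1.146 FPKM in S3, against 18.21 and 35.95 in S1, and NIA2 was not called. For proline, an osmolyte of drying tissue, the synthesis enzyme P5CS1 was at 1740 and 2396 FPKM in S3, against 674.7 and 841.7 in S1 (log2 fold change 1.44), and the breakdown enzymes PRODH1 and PRODH2 fell by 1.58 and 3.33 on the log2 scale. P5CS1, ASN1, BCAT2 and GOLS1 overlap genes on the opposite strand. GOLS1, which starts raffinose synthesis, was at 12.09 and 14.41 FPKM in S3, against 80.24 and 86.76 in S1.

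In the heat shock list 5 of 16 tested genes were called higher and 4 lower. HSP70-4, a chaperone, was at 99.2 and 100.1 FPKM in S3, against 11.45 and 15.77 in S1 (log2 fold change 2.80), whereas the small heat shock protein HSP17.6II was at 0.6139 and 0.4132 FPKM in S3, against 13.56 and 14.41 in S1 (log2 fold change -3.31). HSP101, the heat-induced disaggregase, was near 1 FPKM in all 4 libraries and was not called. HSFA6B, the relative of HSFA6A, went in the opposite direction to it, at 11.21 and 7.518 FPKM in S3, against 27.34 and 65.99 in S1, but lost its call without S3 replicate 2. Among hormone genes other than those of abscisic acid and jasmonate, 6 of 14 tested ethylene and ERF genes were called lower and 0 higher, with ACO4, an ethylene-forming oxidase, at 39.37 and 35.81 FPKM in S3, against 314 and 358.1 in S1. With pseudocount 5 the number called lower was 2. Of 16 touch, calcium, cold and early stress genes 6 were called lower and 1 higher. WRKY40, a factor of early stress responses, was at 2.374 and 3.231 FPKM in S3, against 39 and 26.21 in S1, and the cold factor CBF3 was called higher, at 36.35 and 32.11 FPKM in S3, against 8.528 and 10.84 in S1. Both overlap genes on the opposite strand.

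Glucosinolates are defence compounds of the cabbage family. Of 15 tested genes of indole glucosinolates 10 were called lower and 4 higher, with a median log2 fold change of -1.81. CYP79B2, which begins the pathway from tryptophan, was at 1.86 and 3.845 FPKM in S3, against 96.33 and 79.66 in S1, and the activator MYB34 was at 1.559 and 2.931 FPKM in S3, against 47.37 and 53.49 in S1. The methyltransferases of the last steps went apart. IGMT4 was at 78.83 and 74.23 FPKM in S3, against 9.344 and 7.134 in S1 (log2 fold change 3.08), and IGMT5 was at 3.309 and 2.141 FPKM in S3, against 127.2 and 147.4 in S1 (log2 fold change -5.23). IGMT1 to IGMT4 are close neighbouring copies, whose reads could have been shared, and with pseudocount 5 IGMT4 alone of them was called. IGMT5 overlaps a gene on the opposite strand. Of 16 genes of aliphatic glucosinolates 1 was called higher and 1 lower (6.25% each, below the 8.16% and 9.75% of all genes), with a median log2 fold change of -0.38. In each of the 16, S3 replicate 1 was above S3 replicate 2, and without S3 replicate 1 the number called lower was 6.

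In the wall-loosening list, 6 of 14 tested expansins and XTH enzymes were called lower and 3 higher. EXPA1 was at 3.498 and 4.214 FPKM in S3, against 75.25 and 66.97 in S1, and the touch-induced XTH22 was at 150.5 and 170.5 FPKM in S3, against 20.82 and 17.23 in S1. Of 17 tested auxin response and SAUR genes, which promote growth, 6 were called lower and 1 higher, and with pseudocount 5 none of the 6 was called. Flavonoid genes were few above the limit, with 3 of 10 called higher and 2 lower, and with pseudocount 5 the number called lower was 0. FLS1, a flavonol synthase, was among those called lower, at 2.791 and 3.942 FPKM in S3, against 9.791 and 8.708 in S1, and among those called higher was MYBL2, a repressor of anthocyanin synthesis, at 234.5 and 229.1 FPKM in S3, against 47.56 and 43.11 in S1.

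Some of the largest fold changes came from the shortest transcripts and need separate treatment. The snoRNA gene AT3G47348 was at 746.4 and 345.4 FPKM in S3, against 0.3583 and 0 FPKM in S1, and the snoRNA gene AT3G50825 was at 1.021 and 0 FPKM in S3, against 1284 and 1168 FPKM in S1. Their transcripts have 85 and 81 bases in the annotation. The ratio between their replicates in the higher condition was 2.16 and 1.1, which is what 2 reads against 1 and 1 read against 1 would give at the value of a single read in these libraries. In the condition with the higher level, such a ratio of whole numbers up to 3, within 0.2%, was found in 24 of the 48 called transcripts of 300 bases or shorter, against 49 of the 3075 longer ones called (50% against 1.59%). It was found in MIR156d, at 482 and 148.7 FPKM in S3 and listed at 0 in both S1 libraries, and in AT2G34186, at 52.7 and 97.53 FPKM in S3 and listed at 0 in both S1 libraries. The levels of these genes may therefore stand for a few reads, and no direction is drawn from them. Without transcripts of 300 bases or shorter, a setting chosen after the data were seen, 1409 genes were called higher and 1693 lower.

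Of 36 tested precursors of microRNAs 8 were called higher and 3 lower, and 14 were called higher without S3 replicate 1 and 5 lower without S1 replicate 1. Of the called precursors, 10 have 300 bases or fewer, and each of them showed such a ratio in one condition or the other. MIR171c, MIR156d, MIR403 and MIR166a showed it in the condition with the higher level, and MIR159a, MIR159b, MIR168a, MIR398B, MIR850 and MIR852 in the one with the lower level. MIR398B, of the family that targets copper superoxide dismutases, was at 183.1 and 104.3 FPKM in S3, against 15.56 and 14.15 in S1. Its S1 values stand in the ratio that 1 read against 1 read would give, and it overlaps AT5G14550 on the opposite strand. No direction is drawn for these 10 precursors. The dismutase genes CSD1 and CSD2 were not called, with log2 fold changes of -0.17 and -0.90, and for CSD2 the libraries were at 67.08 and 102.5 FPKM in S3, against 229 and 106 in S1. Levels of the mature microRNAs were not measured by these libraries.

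The genes with the smallest change at 100 FPKM or more in both conditions were AT4G02360, SNF7.1, AT3G26070, CEV1 and GSTF8, all with log2 fold changes of 0.00 and intervals within 0.41 of it. CEV1, a cellulose synthase, was at 117.9 and 154.5 FPKM in S3, against 131.2 and 138.4 in S1, with overlap of the groups, and it overlaps a gene on the opposite strand. Of 12 tested genes of copper and superoxide 4 were called higher and 0 lower, and the number called higher was 2 without S1 replicate 1, while 1 was called lower without S1 replicate 2. The catalase CAT3 was at 5843 and 5270 FPKM in S3, against 1850 and 2832 in S1, and lost its call without S3 replicate 1 and without S1 replicate 1. The phloem transporter SUC2 was at 223.9 and 260.7 FPKM in S3, against 236.7 and 253.6 in S1, without a call. The 3 epidermal markers were not called: ATML1 and FDH had log2 fold changes of -0.17 and -0.24, and PDF1 was at 3.812 and 8.018 FPKM in S3, against 3.623 and 0.6964 in S1, and was called higher without S1 replicate 1. In bulk leaves, fewer cells of a type and less RNA per cell cannot be told apart.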

How the data were processed

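RNA of rosette leaves was sequenced in 2 independent samples per condition, numbered as in the labels. The p-values measure the spread between these samples only. The authors aligned reads with bowtie and TopHat at default settings to TAIR10. They computed the deposited FPKM values with Cuffdiff, in one run for S1 with W and another for S3 with S1. The S1 values used here are those of the first run, and the S3 values those of the second. The S1 and S3 reads had the same length, shorter than that of W. The library kit does not mark strand.

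Genes that averaged 1 FPKM or more in S3 or S1 were tested after taking log2(FPKM + 1), a scale that understates the change of low genes. The test was that of limma 3.58.1 (R 4.3.3, trended moderation, 2 residual degrees of freedom, Benjamini-Hochberg adjustment). A gene was called at an adjusted p of at most 0.05 and a log2 fold change of at least 1 in size. In data simulated from the model's own spread, changes added well above the limit had the right sign in nearly all genes. This checked the code and not the calls made here. The paper lists the mapped reads of each library. The reads behind single values are known only from the steps of low values, and counting error is not modelled.

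Named genes were the members of the lists, the 12 protein-coding and 5 non-coding genes per direction with the largest change among those called, without overlap of the groups and at 10 FPKM or more in the higher condition, and the 5 steadiest protein-coding genes at 100 FPKM or more in both. Members and lists were chosen with earlier results of these data known. Upstream sequences and gene positions are from RefSeq (TAIR10.1), in which 32803 of 33555 loci were found. Alternatives were 2 scalings, 2 pseudocounts, 2 filters, a fit on 6 libraries, no trend, the adjusted p alone, a replicate block and each library left out. The fits without genes at 0 in both libraries of a condition and without transcripts of 300 bases or shorter were added after the data were seen.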

Additional observations from a re-analysis of the deposited data

How the results depend on the processing

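No call changed direction under any alternative. The 1433 genes called higher and 1712 lower became 801 and 1027 with pseudocount 5 and 4029 and 4034 with the adjusted p alone. Leaving out single libraries gave 1287 to 1576 higher and 1567 to 1908 lower. Scaling to the same sum gave 1625 higher and 1534 lower, which moved the share of higher calls to 51.4% and the median of all genes to 0.094. The other settings stayed within 1.5 times. Deviations of same-numbered libraries had a correlation of -0.019 across genes, which alone cannot show whether replicate numbers pair the samples. In the cytosolic ribosomal list, replicate 1 summed above replicate 2 in S3 (6505 and 5404 FPKM) and in S1 (8902 and 7455 FPKM). In the aliphatic glucosinolate list it did so in S3 (830.6 and 403.8 FPKM) but not in S1 (576.9 and 868.7 FPKM). A replicate block gave 1429 higher and 1708 lower and ended 1 call among the named genes, that of THI2.1. Of the 296 named genes called, 65 lost their call with pseudocount 5, 13 with the same sum, 12 with no filter and between 10 and 28 without single libraries. With 2 libraries per condition, genes near a log2 fold change of 1 are the least certain, and for transcripts of 300 bases or shorter a level can rest on a few reads.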

Other observations

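In the salicylic acid and defence list, 4 of 16 tested genes were called lower in S3 and 0 higher, with a median log2 fold change of -0.64. EDS5, a transporter needed for salicylic acid synthesis, was at 0.9223 and 1.301 FPKM in S3, against 14.2 and 16.07 in S1, and WRKY18, a transcription factor of defence, was at 13.11 and 14.02 FPKM in S3, against 92.83 and 77.16 in S1. The groups did not overlap in either gene, and both passed limma's test over all genes, with log2 fold changes of -2.94 and -2.56. EDS5 overlaps a gene on the opposite strand. The count was 7 with pseudocount 0.1 and 2 with pseudocount 5.

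The defence proteins PR1, PR2 and PR5 were not called, and their replicates lay far apart. PR1 was at 8.241 and 1.063 FPKM in S3, against 0.7725 and 1.305 in S1. PR2, a glucanase, was at 61.19 and 13.26 FPKM in S3, against 19.1 and 59.86 in S1. PR5, a thaumatin-like protein, was at 30.46 and 6.973 FPKM in S3, against 41.23 and 42.77 in S1. In all 3 genes S3 replicate 1 was above S3 replicate 2, as it was in the sulfur gene LSU1, at 9.669 and 0.8878 FPKM in S3. The cause was not tested.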
